A study of Mus musculus with 3 samples.

Results

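MIN6 cells with 1 disrupted copy of Arid1a were set against wild-type MIN6 cells by their peaks of H3K27ac, acetylation of lysine 27 of histone H3. The comparison used 2 of the 3 libraries of the series, 1 per genotype, and the remaining library, a homozygous Arid1a knockout, is quoted only for peak counts at single genes. Peaks of both lists that touched or overlapped were joined, which gave 47183 regions, of 52938 when all 3 lists were joined. A region was gained when it held a heterozygous peak and no wild-type peak lay in it or within 1 kb of it, and lost in the reverse case. There were 5075 gained and 14457 lost regions, 10.8% and 30.6% of the 47183 regions. Another 23408 regions held peaks of both libraries and are called shared, and the last 4243 had a peak of the other library within 1 kb but not in them. The genotypes had no replicates, so none of the differences below has a test or a replicate check, and the Wilson 95% intervals given with shares cover counting error only.

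MIN6 is a mouse insulinoma line that secretes insulin in response to glucose and is used as a model of the pancreatic beta cell. All groups came from MIN6 cells that carried a Cas9 lentivirus under blasticidin selection and then received, under puromycin selection, a lentivirus with a guide against Arid1a. Cells were then plated thinly, clones were picked, and PCR genotyping with Western blotting for ARID1A sorted them into wild type, heterozygous knockout and homozygous knockout. The wild-type group is therefore, per the labels, a clone from the same guide treatment, although its peak names carry a GAL4 tag that the labels leave unexplained. How many clones a library holds is not stated either, so a difference between clones and a difference between genotypes cannot be told apart. No growth factor or other agent was added for the comparison. The guide is shown because its cut defines the mutant alleles. It has 20 bases, followed by the PAM that Cas9 needs, in capitals.
Arid1a guide: gctgctgctgatacgaaggtTGG

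Arid1a encodes the DNA-binding subunit of the canonical BAF form of SWI/SNF, a complex that uses ATP to slide and evict nucleosomes and so opens enhancers to transcription factors. H3K27ac is laid down by the acetyltransferases p300 and CBP at active promoters and enhancers, and is removed by histone deacetylases. In beta cells, enhancers of this kind surround genes for insulin, glucose uptake and granule release. The series names EGF signaling in its title. EGF family ligands act through receptors of the ErbB family, adaptors such as the Shc proteins, and the MAP kinase cascade, whose output is limited by phosphatases such as Dusp6.

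Arid1a itself, at chr4:133679008-133756769 in build mm10, held 4 shared regions and 1 region with a neighbouring peak of the other library, and none that was gained or lost. The wild-type, heterozygous and homozygous lists had 5, 4 and 6 peaks there. Peak lists of this mark say nothing about whether an allele is disrupted, so the genotype rests on the labels. The beta cell label was checked on marker genes. Each of the 10 beta cell markers had at least 1 region, and 31 of their 63 regions (49.2%) were shared, close to the 49.6% of all regions. Peaks stood at the start of Ins1, Iapp, Nkx6-1, G6pc2 and Neurod1 in both libraries. The start of Pdx1 had a peak in the wild type alone and that of Slc2a2 in neither. Ins2, Mafa and Slc30a8 had no listed start. Of markers of other cell types, the delta, PP and epsilon set, the immune set and the endothelial set had no start with a peak in either library, over 5, 5 and 3 members with a listed start. The acinar set had 1 of 9, Cela1, in the heterozygous library alone, and the duct set had Krt8 in both, Krt7 and Krt18 in the heterozygous library alone and Muc1 in the wild type alone. The alpha set had Irx2 in both. Its Irx1, a homeobox gene, had 4 lost regions and no other. The mesenchymal set had Zeb2 at its start in both and Twist1 in the wild type alone. Members with any region within 100 kb numbered 6 of 7 for alpha, 4 of 5 for delta, PP and epsilon, 6 of 10 for acinar, 7 of 10 for duct, 8 of 13 for mesenchymal, 2 of 8 for immune and 3 of 7 for endothelial markers. Over all protein-coding genes, 14012 of 21887 had such a region. Of the 17492 genes with a listed start, 7861 had a start peak in neither library. The lists hold peaks and not levels, so the part of other cell types in the differences was not tested.

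The wild-type list was longer, with 41490 peaks over 25.1 Mb against 31365 peaks over 17.5 Mb, while the median fold enrichment over the local background was alike at 5.67 and 5.81. Total reads per library are not stated in the labels or lists. The background that the caller's own values imply was 1.73 reads per position at its lowest in the heterozygous library and 2.17 in the wild type, a ratio of 0.798. Fewer reads give fewer peaks, so the counts were repeated with the lists made alike. Lost regions outnumbered gained regions 2.85 to 1 as deposited. For thinning, the wild-type pile-ups were scaled down to the heterozygous background and both lists were held to a −log10 p floor of 8.58. This left 34230 wild-type and 29798 heterozygous peaks, and the ratio was 1.83. It was 1.15 when the wild-type list was held to its strongest 31365 peaks. With peaks below a −log10 q of 10 dropped from both lists, there were 10080 lost and 3432 gained regions. Such a limit does not match the lists for depth. Some of these regions also had a deposited peak of the other library below the limit. At equal length a heterozygous region also counted as gained when its only wild-type peak was among those dropped. The size of the excess thus depended on how the 2 lists were matched.

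Of the 29826 regions with a heterozygous peak, 17.0% (95% interval 16.6 to 17.4) were gained and 78.5% were shared. Of the 40765 regions with a wild-type peak, 35.5% (35.0 to 35.9) were lost and 57.4% were shared. Neighbouring regions can be pieces of 1 acetylated stretch. Of the gained regions, 43.9% had another gained region within 1 kb, and of the lost regions 49.3% had another lost one. Counted as stretches, there were 3917 gained and 10770 lost, at a ratio of 2.75. With any distance allowed short of overlap there were 6418 gained and 17357 lost regions, and with a limit of 5 kb 4251 and 13170. Next to the limit of 1 kb, 173 heterozygous regions with a wild-type peak between 500 bp and 1 kb away (median fold 3.83) did not count as gained and 113 with one in the following 500 bp (median fold 3.76) did. For lost regions these numbers were 404 (median fold 3.39) and 177 (median fold 3.29). The median gained region lay 19.5 kb from any wild-type peak, and the median lost region 29.0 kb from any heterozygous peak.

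Gained and lost regions were both far from promoters. Within 1 kb of a transcription start lay 4.69% (4.14 to 5.31) of gained and 6.29% (5.91 to 6.70) of lost regions, or 238 and 910, against 46.8% (46.2 to 47.4) of shared regions. A further 1.56%, 2.09% and 9.54% lay within 1 kb of an end of a gene whose start was not listed. Distances below are to the nearest listed start or, for a gene without one, to an end of the gene. The median distance was 37.3 kb for gained, 31.8 kb for lost and 0.218 kb for shared regions. Beyond 100 kb from any such point lay 25.7% (24.5 to 26.9) of gained, 22.0% (21.3 to 22.7) of lost and 8.87% of shared regions. Gene bodies held 47.6% (46.3 to 49.0) of gained, 58.3% (57.5 to 59.1) of lost and 65.3% of shared regions. The intervals here treat regions as independent, although many are neighbouring pieces of 1 stretch, so they are too narrow. Read by place, 83.0% of the 13208 regions at a start were shared, but only 28.9% of the 7198 regions over 100 kb away. Lost regions outnumbered gained ones 3.82 to 1 at starts and likewise at gene ends, and 2.44 to 1 over 100 kb away.

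**Figure D1:**
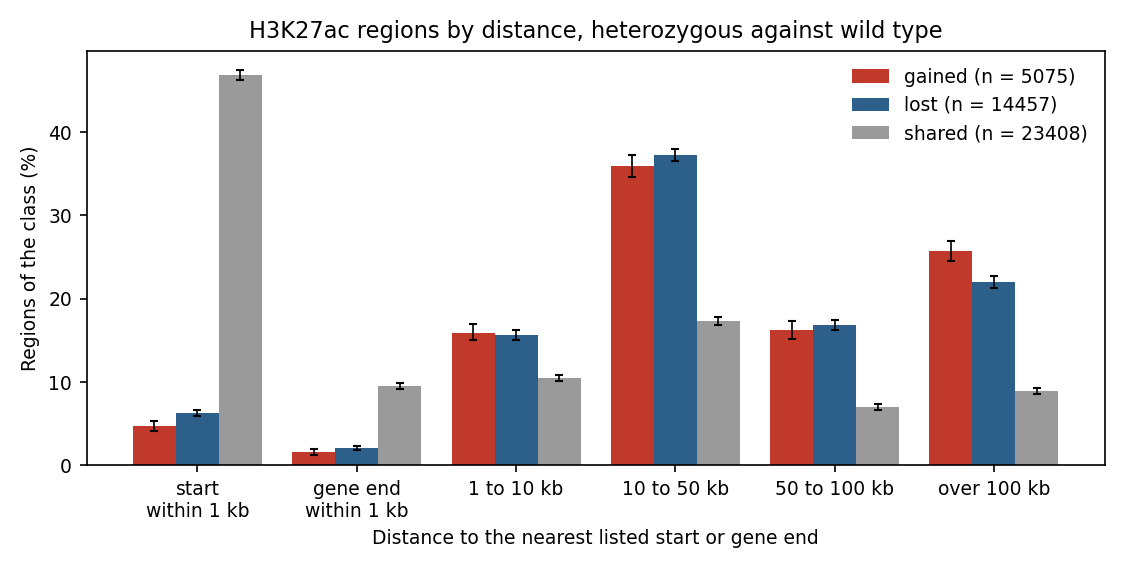
Share of gained, lost and shared H3K27ac regions (y axis, percent of the class) by distance to the nearest listed transcription start or gene end (x axis), with Wilson 95% intervals as error bars. Shared regions peak at starts (46.8%), whereas gained and lost regions are most frequent 10 to 50 kb away, at 35.9% and 37.2%.

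One-sided regions were narrow and weak in their own list. Median widths were 336 bp for gained, 376 bp for lost and 720 bp for shared regions. A shared region spans joined peaks of both lists and takes the highest fold and −log10 q among them, which raises its values by construction. Over all single peaks, median widths were 474 bp in the heterozygous and 509 bp in the wild-type list. Median folds of all peaks were 5.81 and 5.67 in the same order. The median fold enrichment was 5.00 for gained regions, against 6.44 for shared regions in the same heterozygous list. It was 5.09 for lost regions, against 6.67 for shared regions in the wild-type list. Strong is used below for a region whose −log10 q reaches the median of all peaks of its own list, 18.5 in the heterozygous and 19.0 in the wild-type list. By that measure 774 gained regions (15.3%) and 2720 lost regions (18.8%) were strong. With each list cut into 10 equal parts by −log10 q, the gained share went from 43.1% (41.4 to 44.9) in the weakest part of the heterozygous list to 0.671% (0.435 to 1.03) in the strongest, and the lost share from 71.6% (70.2 to 73.0) to 0.540% (0.357 to 0.816). The strongest part of each list thus held 20 gained and 22 lost regions.

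**Figure D2:**
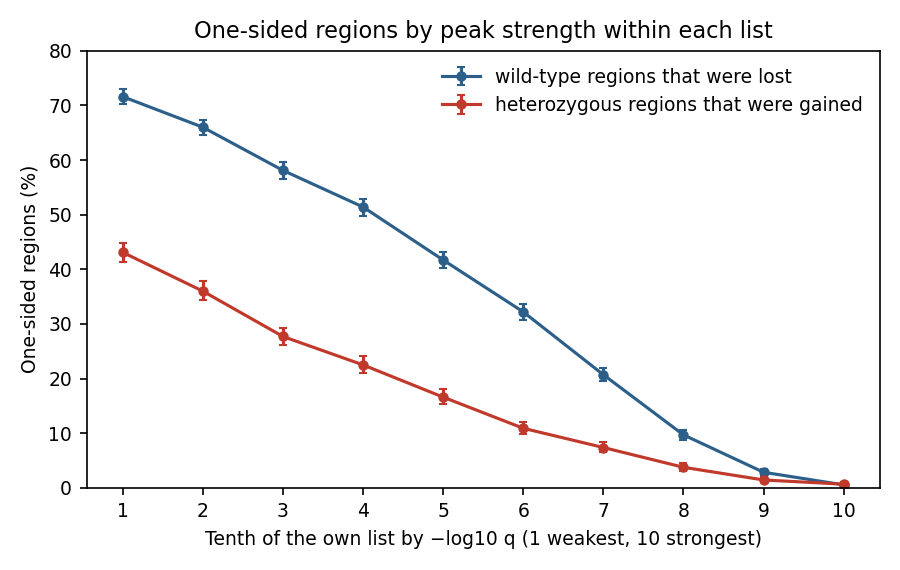
Share of regions that were one-sided (y axis, percent, with Wilson 95% intervals) by rank of −log10 q in the own list (x axis, 10 equal parts, 1 weakest, 10 strongest), for heterozygous regions that were gained and wild-type regions that were lost. Both curves fall steadily, from 43.1% and 71.6% in the weakest part to below 1% in the strongest.

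By chromosome, the gained share of heterozygous regions ran from 11.1% (9.12 to 13.5) on chromosome X and 12.2% (10.9 to 13.6) on chromosome 11 to 21.2% (19.1 to 23.5) on chromosome 6 and 21.5% (19.2 to 24.0) on chromosome 14. The lost share of wild-type regions ran from 27.5% (25.1 to 30.1) on chromosome 19 to 41.1% (39.2 to 43.0) on chromosome 1, apart from chromosome Y with 39 regions. Chromosome X had the highest ratio of lost to gained regions, 3.98, and chromosome 14 the lowest of the large chromosomes, 2.08. Chromosome number can differ between clones of a cell line, and its part in these shares was not tested.

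Few promoters changed sides. Of 17492 genes with a listed start, 179 (1.02%) had a peak within 1 kb of a start in the heterozygous library only and 704 (4.02%) in the wild type only. Both libraries had one at 8748 genes and neither at 7861. The gained promoters with the highest fold in their own list were those of Tpbg, a membrane glycoprotein of trophoblast and embryonic tissue, Oat, the mitochondrial ornithine aminotransferase, and En1, a homeobox factor of brain and limb patterning. The lost promoters with the highest fold were those of Agbl3, which trims glutamates from tubulin, and H2bc1, a histone H2B gene of the testis. Egfr and Nrp2 are added as the promoters of the EGF receptor and of a semaphorin co-receptor that lie among other one-sided regions. The 250 bases before each start, from RefSeq on GRCm38.p6, the assembly behind mm10, are printed on the gene's strand. Every CG dinucleotide is in capitals, since median CG counts were lower in one-sided windows than in windows with peaks in both libraries. The medians follow the sequences.
Tpbg: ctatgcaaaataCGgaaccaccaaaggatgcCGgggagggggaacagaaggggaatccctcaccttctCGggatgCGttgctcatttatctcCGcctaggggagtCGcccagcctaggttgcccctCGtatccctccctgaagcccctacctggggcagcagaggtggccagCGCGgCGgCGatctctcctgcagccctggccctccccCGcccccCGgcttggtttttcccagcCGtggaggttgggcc
Oat: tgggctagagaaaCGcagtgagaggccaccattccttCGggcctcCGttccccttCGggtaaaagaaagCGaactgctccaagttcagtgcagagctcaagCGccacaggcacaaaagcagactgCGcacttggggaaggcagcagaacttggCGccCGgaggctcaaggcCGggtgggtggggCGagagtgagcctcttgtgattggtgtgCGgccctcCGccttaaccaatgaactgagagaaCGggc
En1: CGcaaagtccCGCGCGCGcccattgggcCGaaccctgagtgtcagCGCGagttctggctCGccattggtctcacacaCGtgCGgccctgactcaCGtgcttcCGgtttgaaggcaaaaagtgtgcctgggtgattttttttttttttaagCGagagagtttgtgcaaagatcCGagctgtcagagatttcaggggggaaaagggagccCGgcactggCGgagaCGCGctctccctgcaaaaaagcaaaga
Egfr: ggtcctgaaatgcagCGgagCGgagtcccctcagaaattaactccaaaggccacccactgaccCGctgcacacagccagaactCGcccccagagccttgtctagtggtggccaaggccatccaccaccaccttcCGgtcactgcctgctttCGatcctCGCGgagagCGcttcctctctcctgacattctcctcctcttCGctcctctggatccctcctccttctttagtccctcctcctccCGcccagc
Agbl3: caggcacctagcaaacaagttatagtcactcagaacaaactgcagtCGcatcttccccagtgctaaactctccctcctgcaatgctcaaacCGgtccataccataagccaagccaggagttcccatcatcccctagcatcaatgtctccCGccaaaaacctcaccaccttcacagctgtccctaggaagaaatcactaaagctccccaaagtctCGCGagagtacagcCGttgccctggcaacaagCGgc
H2bc1: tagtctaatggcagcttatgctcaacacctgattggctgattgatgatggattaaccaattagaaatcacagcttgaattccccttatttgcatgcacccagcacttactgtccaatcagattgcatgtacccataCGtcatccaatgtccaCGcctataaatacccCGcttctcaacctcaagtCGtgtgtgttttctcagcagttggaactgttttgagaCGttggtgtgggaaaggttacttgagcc
Nrp2: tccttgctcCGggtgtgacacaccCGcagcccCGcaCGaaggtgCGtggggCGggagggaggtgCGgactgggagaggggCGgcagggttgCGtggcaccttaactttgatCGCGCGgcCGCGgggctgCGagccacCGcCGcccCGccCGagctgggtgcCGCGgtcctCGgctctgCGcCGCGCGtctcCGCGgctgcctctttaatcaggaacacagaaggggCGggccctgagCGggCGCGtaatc
These windows lie at chr9:85842602-85842851 on the plus strand for Tpbg, chr7:132576399-132576648 on the minus strand for Oat, chr1:120602237-120602486 on the plus strand for En1, chr11:16751953-16752202 on the plus strand for Egfr, chr6:34780182-34780431 on the plus strand for Agbl3, chr13:23934157-23934406 on the minus strand for H2bc1 and chr1:62703067-62703316 on the plus strand for Nrp2. They hold from 5 CG dinucleotides (H2bc1) to 32 (Nrp2), with 14 each in Tpbg and Oat, 19 in En1, 11 in Egfr and 7 in Agbl3.

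Over all listed starts, counted separately where a gene had several, windows with a peak in 1 library only were intermediate in base content. Their median was 10.0 CG dinucleotides for the 237 heterozygous-only starts and the 865 wild-type-only starts alike, against 18.0 for 10415 starts with a peak in both and 3.00 for 9746 starts with neither. Median GC content was 58.8% and 57.6% for the one-sided windows, 61.6% for both and 48.4% for neither. The AP-1 motif TGANTCA, the site of Fos and Jun dimers, was 1 of 9 motifs searched on both strands. It occurred in 31 heterozygous-only windows, or 13.1% (9.37 to 18.0), and in 4.74% (3.51 to 6.37) of wild-type-only windows, beside 3.28% with peaks in both, 9.13% with neither and 6.13% of all 21263. None of the motifs searched contains another. The ETS motif CCGGAAG was in 4.22% and 3.93% of the one-sided windows and 15.8% of those with both, against 8.98% of all windows. The GC box GGGCGG was in 53.6%, 49.8% and 63.2% in the same order, and in 42.6% of all. Other motifs were less frequent in heterozygous-only than in wild-type-only windows, the E-box CAGATG with 7.59% against 13.1% and 12.4% of all, and CCAAT with 27.8% against 37.0% and 35.4% of all. The TATA box TATAAA was in 11.4% and 7.75%, and in 11.6% of all. For these 3 motifs the intervals of the one-sided groups overlapped. They also overlapped for the CRE TGACGTCA, the FOXA motif TGTTTAC and the NFAT motif TGGAAA, which were in 0.844%, 1.69% and 15.2% of heterozygous-only and 1.92%, 2.62% and 17.0% of all windows. A match describes the letters of a window and is not a binding site. Of the printed windows En1 has the AP-1 motif, En1 and Egfr have the ETS core CCGGAAG, and H2bc1 has a TATA box.

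The promoter of Tpbg had 2 gained regions, one across the start with fold 17.3 and −log10 q 90.8 and one 519 bp from it with fold 4.52. Oat also had 2, with fold 13.2 and −log10 q 96.5 at the start and fold 6.83 inside the gene. No wild-type peak was assigned to either gene, and 1 homozygous peak at Tpbg and 4 at Oat were. The En1 peak (fold 12.1) was gained beside 4 shared regions and 1 lost region of the same gene, so En1 had acetylated regions in wild-type cells too. The next gained promoters were those of Mdfic with fold 11.5, the zinc transporter gene Tmem163 and the anticoagulant gene Pros1 with 10.1 each, the tight-junction gene Ocln with 10.0, the folate enzyme gene Mthfd2l with 9.03, the epithelial keratin gene Krt18 with 8.95, and Sowahb with 8.80. All 10 of these gained promoter regions were strong.

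Among lost promoters, Agbl3 had a lost region of 999 bp at its start with fold 14.4 and −log10 q 106, and no heterozygous peak. H2bc1 followed with 14.3, and then Ninl, a centrosomal protein gene, with 14.2 and Dmac1, a factor in assembly of respiratory complex I, with 13.9. Inava had 13.7, Dnah9, a dynein heavy chain of motile cilia, 13.6, Nsun7 13.4, and Me3, the mitochondrial malic enzyme, 13.4. Ttc30a1, which serves transport within cilia, and the orphan receptor gene Gpr135 had 13.3 each. All 10 were strong in the wild-type list, and their folds of 13.3 to 14.4 in that list are not comparable with folds in the heterozygous list.

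Away from promoters, the 5 gained regions with the highest fold were 312 to 670 bp wide. The first was 337 bp at chr8:69728530-69728866, with fold 16.1, 11628 bp from the start of the zinc finger gene Zfp869, and the next was 332 bp at chr15:82597156-82597487, with fold 15.7, near the cytochrome P450 gene Cyp2d34. Others were at chr16:77121246-77121557 with fold 15.0, chr8:99619553-99620222 with fold 13.2 and chrX:148607812-148608128, nearest to Gm15127, with fold 12.4. Among distal lost regions, fold 15.1 was reached at chr16:21728068-21728508, nearest to 2510009E07Rik, and fold 14.6 at chr6:130954835-130955183. The next, at chr7:109115212-109116012 with fold 14.5, was nearest to Ric3, a chaperone of nicotinic acetylcholine receptors. The last 2 had fold 14.2 and lay 312205 and 422664 bp from the nearest start or gene end on chromosome 7. None of these 10 distal regions lay inside a protein-coding gene. Peaks in repeated sequence were not filtered out here.

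Assigned to the nearest start within 100 kb, or to a gene end where no start was listed, regions fell to 14012 genes. More gained than lost regions were found at 1478 of them (10.5%) and more lost than gained at 4857 (34.7%), and 7378 genes had neither. At least 5 gained regions were found at 69 genes and at least 5 lost at 413. At 13 genes 5 or more gained regions were the only regions of the gene, and at 104 genes 5 or more lost regions were.

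**Figure D3:**
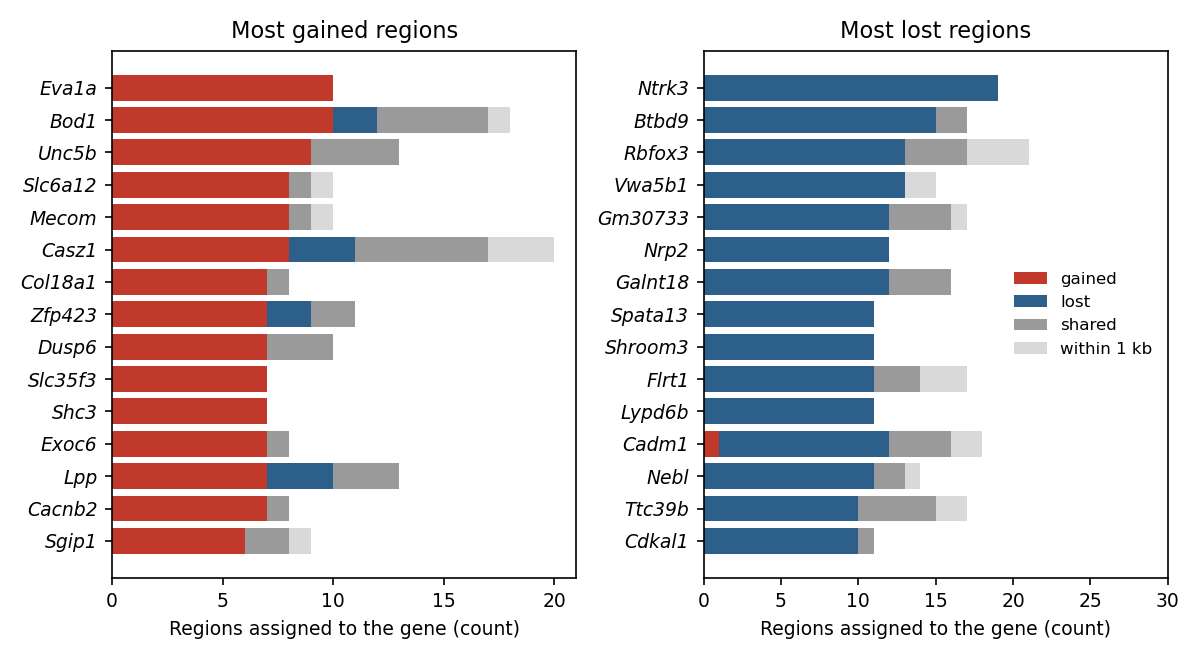
Number of regions (x axis) assigned to the 15 genes with the most gained regions (left panel) and the 15 with the most lost regions (right panel), with gained, lost and shared regions and regions within 1 kb of a peak of the other library stacked. Eva1a, Slc35f3 and Shc3 hold gained regions only, and Ntrk3, Nrp2, Spata13, Shroom3 and Lypd6b hold lost regions only.

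Eva1a, a membrane protein linked to autophagy, had 10 gained regions in 5 stretches and no peak at all in the wild type. They began 1837 bp before its listed start with fold 3.14, followed by folds of 3.38, 3.69 and 3.48 within 1 kb of the start. Inside the gene stood 2 regions of fold 5.53 and 4.15, 41849 and 43119 bp from the start. Beyond its end came 4 more of fold 4.88, 5.76, 5.59 and 4.50. No fold was high, but the series ran on without an interruption over 93.9 kb, and 3 regions were strong. Against these 10 heterozygous peaks stood 2 homozygous ones.

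Unc5b, a netrin receptor of axons and blood vessels, had 9 gained and 4 shared regions, and peaks at its start in both libraries. Its strongest gained region, chr10:60804703-60805664 in the gene body, had fold 7.38 and −log10 q 71.6. Of the other regions assigned to it, 5 in the gene had folds of 2.82 to 4.94, and 3 upstream of the gene had 3.85, 4.21 and 4.96. A run of 11 gained regions lay within the gene body, and the part of it that was nearest to another gene is not among these 9. The promoter was thus acetylated in both libraries, and the difference was in intragenic and flanking regions. Unc5b had 2 homozygous peaks, fewer than the 4 of the wild type.

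Slc6a12, a transporter of betaine and GABA, had 8 gained regions. The highest pair, with fold 6.72 (−log10 q 60.1) and 5.65 (43.4), lay 48402 and 49569 bp from its start inside the neighbouring gene Iqsec3, so that either gene could be meant. There were 8 homozygous peaks here and 1 wild-type peak. Mecom, a zinc finger factor of blood stem cells, had 8, of which 3 lay at its listed starts with folds of 8.04, 5.08 and 4.47. Col18a1, a collagen of basement membranes, had 7 with folds of 3.58 to 7.26. Bod1, a regulator of chromosome attachment to the spindle, had 10 gained regions beside 5 shared and 2 lost, so both directions met at this gene.

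Others of the 15 genes with the most gained regions were the transcription factor genes Casz1 (8 gained, 3 lost) and Zfp423 (7 gained, 2 lost), the transporter gene Slc35f3 (7, no wild-type peak), the exocyst subunit gene Exoc6 (7), the focal adhesion gene Lpp (7 gained, 3 lost), the calcium channel subunit gene Cacnb2 (7) and the endocytic adaptor gene Sgip1 (6). The net count of Lpp turned to -1 when a region went first to the gene that contains it or when only starts within 20 kb were used.

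Ntrk3 headed the lost side. It encodes TrkC, the receptor of neurotrophin 3, and had 19 lost regions in 10 stretches, no heterozygous peak, and 10 homozygous peaks. Its folds ran from 3.44 to 7.01 around a median of 4.80, and only 1 region, chr7:78577528-78578364 near an end of the gene with −log10 q 19.5, was strong. Against the wild-type list held to the strongest 31365 peaks the count fell to 10, and after thinning to 12. The loss at Ntrk3 is therefore broad but made of weak peaks.

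Nrp2, a co-receptor of semaphorins and VEGF, had 12 lost regions, no heterozygous peak and 1 homozygous peak. The 2 regions on either side of its start had folds of 4.27 and 4.68, and the highest fold, 7.21, was at chr1:62766574-62767704 within the gene. Spata13 had 11 lost regions, and neither knockout list had a peak there. The strongest, with fold 6.96 and −log10 q 31.3, stood 45 bp from a start. Shroom3, an actin organiser of epithelial shape, had 11 in 7 stretches, with 2 regions at each of 2 listed starts, of fold 6.59 and 5.79 at one and 5.29 and 5.12 at the other. At these 3 genes promoter and gene body regions were absent from the heterozygous list together.

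Vwa5b1 had 13 lost regions, of which 5 were strong, with −log10 q of up to 40.8. Rbfox3, the neuronal splicing factor also known as NeuN, had 13 lost beside 4 shared regions, with fold 8.93 and −log10 q 47.0 at the highest, and 5 were strong. Btbd9 had 15 lost regions with 12 homozygous peaks against 2 heterozygous ones. Cdkal1, a tRNA-modifying enzyme whose gene carries human type 2 diabetes risk variants, had 10 lost regions and 1 shared, with −log10 q of up to 44.8, although its start kept a peak in both. The remaining genes of the 15 were Gm30733 (12), Galnt18 (12), Flrt1 (11), Lypd6b (11), Cadm1 (11 lost, 1 gained), Nebl (11) and Ttc39b (10).

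Part of the one-sided regions lay in runs of 1 class. Pieces of 1 stretch count separately in a run, and the share to be expected without clustering was not worked out. Runs of at least 5 consecutive regions of the joined lists, all in 1 direction and at most 100 kb apart, numbered 77 for gains, with 461 regions or 9.08% of all gained regions. Losses formed 472 runs with 3073 regions or 21.3%. The longest gained run, of 11 regions over 46.3 kb, lay at chr10:60771230-60817528 in Unc5b, and 6 of its regions were strong. Eva1a followed with 10. Then came 3 runs with 9 each, at the Clec2 cluster of C-type lectin genes (chr6:128856151-129009137), at Col18a1 with part of its flank, and at chr15:64446129-64722128. The last lay mostly outside genes and overlapped one end of Adcy8, a calcium-stimulated adenylate cyclase. In the Clec2 run and in the run reaching Adcy8 only 1 region of the 9 was strong. None of the 4 gained regions assigned to Adcy8 was strong.

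The longest lost run had 19 regions over 165 kb, at chr4:138470921-138636361 in and beside Vwa5b1, and 5 of them were strong. The next had 18 over 270 kb at chr1:62639267-62909090, spanning Nrp2 and the end of the polarity gene Pard3b. Gabbr2, a subunit of the GABA-B receptor, had 16 over 283 kb, with folds of 2.99 to 9.16. Ntrk3 had 16 over 163 kb and the phosphatase gene Ptpn13 14 over 332 kb with its neighbours. Runs depended on list length, with 130 gained and 134 lost runs in lists of equal length.

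**Figure D4:**
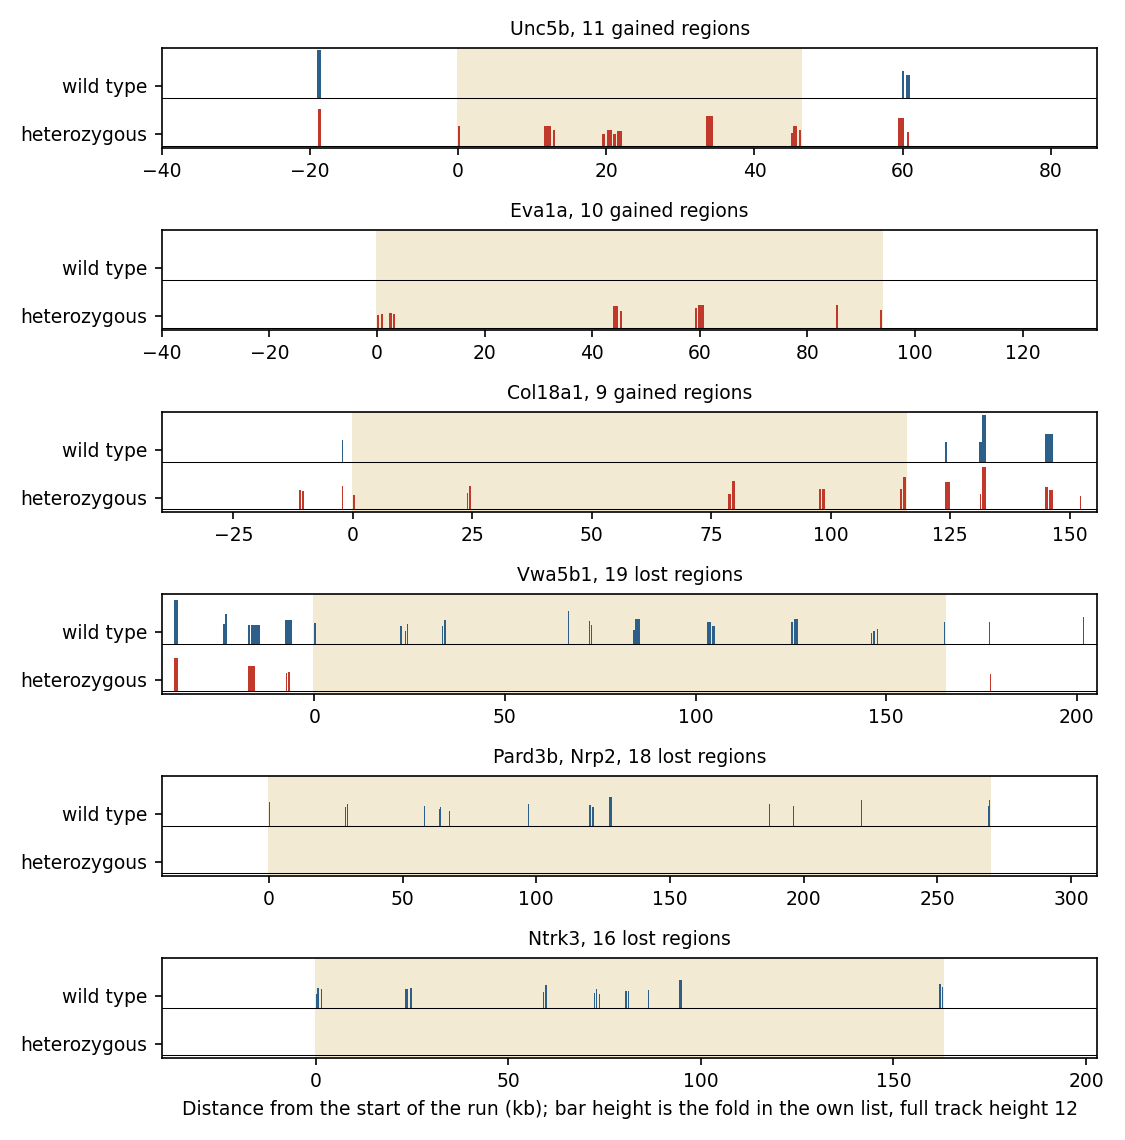
Peaks of the wild-type (upper track) and heterozygous (lower track) lists around 6 of the longest runs, by distance from the start of the run (x axis, kb), with the run shaded and bar height giving the fold in the peak's own list (full track height 12). No wild-type peak falls in the shaded runs at Unc5b, Eva1a and Col18a1, and no heterozygous peak falls in those at Vwa5b1, Nrp2 and Ntrk3.

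Gene lists of 17 pathways and functions were then read against the 39985 regions with a gene within 100 kb, of which 9.43% were gained and 28.2% lost. Of the 14012 genes with a region, 10.5% had more gained and 34.7% more lost regions. Genes with many regions have more room for a net difference, and lists differ in regions per member. The lists and their members were chosen with earlier results of these data known. Their shares therefore describe these genes and are no support for a theme. The receptors and adaptors of the ErbB pathway had 22 gained and 18 lost of 75 regions, or 29.3% and 24.0%, so their gained share was above the background and their lost share below it. Of the 20 members with a region, 6 had more gained and 5 more lost. Egfr, the EGF receptor, had 6 gained regions and no other, 1 homozygous peak and no wild-type peak. The region across its start had fold 5.00 and −log10 q 13.7. Upstream were 2 of fold 3.85 and 3.73, and within the gene 3 of fold 2.93, 3.41 and 4.50. None of the 6 was strong, and 5 were left after thinning. Shc3, a phosphotyrosine adaptor of neurons, had 7 gained regions, no wild-type peak and 6 homozygous peaks, with folds of 3.59 to 5.91, and 3 were strong. Errfi1, a feedback inhibitor of EGFR, had 3 gained and 1 lost, and Erbb2 1 gained. On the lost side stood Ptpn11, the phosphatase SHP2, with 7 lost regions, and Lrig1, which promotes EGFR turnover, with 5. Gained regions of this list therefore came largely from 2 genes, Egfr and Shc3, with 13 of 22 between them.

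EGF family ligands had 1 gained and 11 lost of 24 regions, or 4.17% and 45.8%, and all 11 lost regions belonged to Btc, Tgfa and Nrg2. Of the 8 ligand genes with a region, 3 had more lost, 1 had more gained and 4 had neither. Btc, betacellulin, a ligand first purified from beta tumour cells, had 5 lost regions and no heterozygous peak, with folds of 6.83, 6.89, 5.99, 4.49 and 6.20, and the region of fold 5.99 lay 136 bp from its start. None was strong. Tgfa, TGF-alpha, had 3 lost regions and 1 shared. One of these, chr6:86205726-86207237 within the gene, had fold 8.88 and −log10 q 68.3, and the others, at 2.73 and 3.29, were not strong. Nrg2 had 3 lost and Nrg3 1 gained region. Egf, Areg, Hbegf and Nrg4 had neither, and Ereg, Epgn and Nrg1 had no region.

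Immediate early and MAP kinase feedback genes had 23 gained and 28 lost of 141 regions (16.3% and 19.9%). Dusp6, the ERK phosphatase, had 7 gained and 3 shared regions, with a peak at its start in both libraries. Its gained regions all lay 11712 bp or more from the start. The heterozygous values were fold 3.41, 4.09 and 2.87 in one upstream group, 5.23 alone, 5.56 and 7.33 in a nearer group, and 6.38 on the other side. Dusp6 had 2 homozygous and 3 wild-type peaks. Fos, Myc, Dusp4 and Spry2 had 2 gained regions each and none lost, while Egr2 had 5 lost and Phlda1 4 lost. The net count of the list changed from -5 to 4 after thinning and to 9 in lists of equal length, so its direction is not settled by these data.

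Other receptor tyrosine kinases had 16 gained and 43 lost of 104 regions (15.4% and 41.3%), and Ntrk3 alone supplied 19 of the lost ones. The net count turned from -27 to 3 at equal length and was -7 after thinning. Ror1 had 5 lost and 1 gained, a net that turned to 1 in lists of equal length and with strong regions alone. Pdgfra, a receptor of mesenchymal cells that beta cells keep silent, had 5 gained regions with folds of 4.01, 3.62, 3.88, 4.04 and 5.37 and 1 shared, with no peak at its start in either library. Pdgfra had no homozygous peak.

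Genes kept low in beta cells, the so-called disallowed genes, had 27 gained and 15 lost of 70 regions (38.6% and 21.4%), the highest gained share of the 17 lists. Of 15 members with a region, 7 had more gained and 6 more lost. Besides Pdgfra and Oat, Smad3, the TGF-beta signal transducer, had 5 gained and 3 lost regions, and Maf and Nfib, both transcription factors, 4 gained each. At Maf folds of 4.76, 3.51 and 3.89 were at or near an end of the gene and 7.39 was 99043 bp away, and the wild-type list had no peak. Slc16a1, the lactate and pyruvate transporter, had 3 gained and 5 lost regions and Ldha, lactate dehydrogenase A, 1 lost. The net count of the list was 12, and 16 and 25 after thinning and at equal length.

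**Figure D5:**
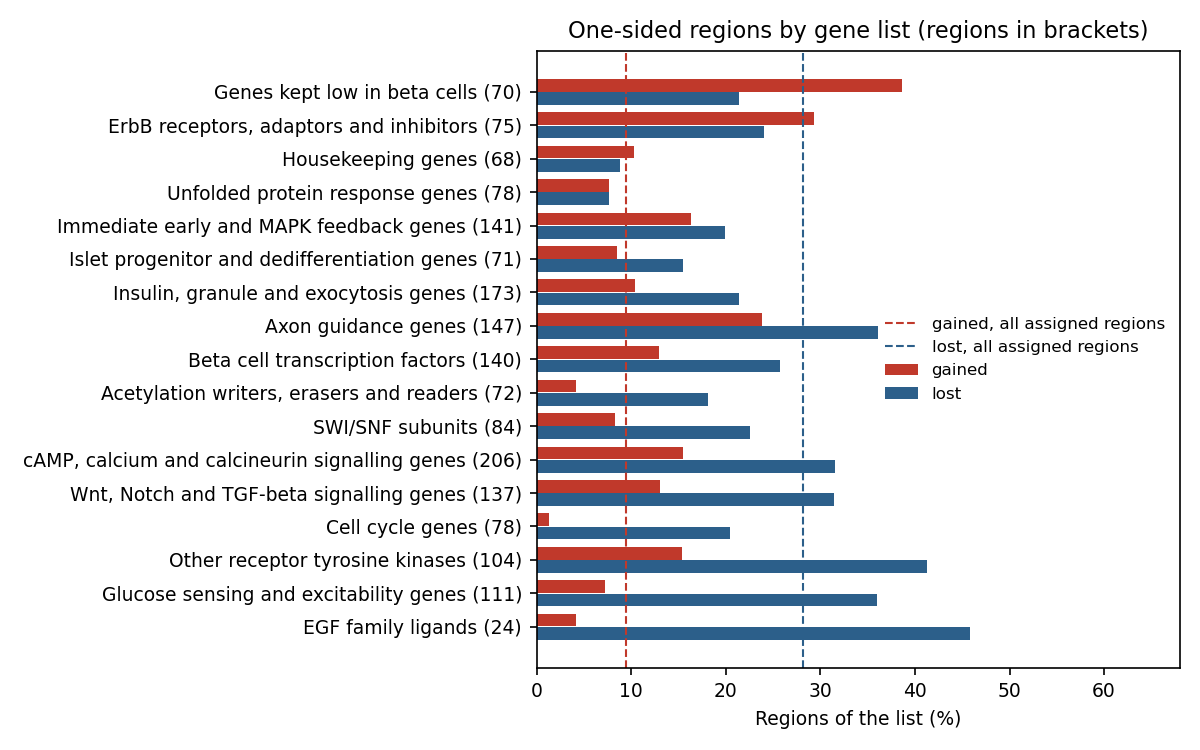
Percent of regions gained and lost (x axis) for each of the 17 gene lists, with the number of regions in brackets and dashed lines at the shares over all regions with a gene within 100 kb (9.43% gained, 28.2% lost). Genes kept low in beta cells (38.6%) and ErbB receptors and adaptors (29.3%) have the highest gained shares, and EGF family ligands (45.8%) the highest lost share. The lists were chosen with earlier results of these data known.

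Among beta cell identity genes, glucose sensing and excitability genes had 8 gained and 40 lost of 111 regions (7.21% and 36.0%). Of 19 members with a region, 11 (57.9%) had more lost and 3 (15.8%) more gained, against 34.7% and 10.5% of all genes with a region. Slc2a2, the glucose transporter GLUT2, had 6 lost regions and 1 gained. Its lost folds were 3.23 and 4.64 upstream, 5.38 and 4.49 in the gene, and 3.29 and 3.70 beyond it, and 3 of them were strong. The only heterozygous peak at Slc2a2 was the gained one, fold 7.68, at the far end of the gene. Its homozygous peaks numbered 7, against 6 in the wild type. Cacna1c, an L-type calcium channel subunit, had 9 lost and 6 shared, and 2 of its lost regions were strong. Gjd2, the connexin of beta cell coupling, had 7 lost regions, none of them strong, and 3 shared. Kcnq1 had 3 gained and none lost. The list kept more lost than gained regions at equal length, with a net of -11, and after thinning, with -19.

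Beta cell transcription factors had 18 gained and 36 lost of 140 regions (12.9% and 25.7%), below the background for losses. Mafa, an activator of the insulin gene in mature beta cells, had 3 lost regions of fold 4.20, 3.00 and 2.90, beside 1 shared and none gained. Foxa2, Insm1 and Myt1 had 4 lost each and none gained. Zbtb20 had 4 gained and 1 lost, Glis3 3 and 1, Pax6 3 and 2, Neurod1 2 and 0, and Pax4 1 and 0. Pdx1 had 1 of each. Starts of Pdx1, Pax6 and Hnf4a had a peak in the wild type alone. At equal length, where the dropped wild-type peaks count as absent, the net of this list turned from -18 to 10.

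Insulin, granule and exocytosis genes had 18 gained and 37 lost of 173 regions (10.4% and 21.4%), and 94 were shared. Scgn, secretagogin, a calcium sensor of insulin granule release, had 5 lost regions, and neither knockout list had a peak there. Across its start and into the gene the folds were 4.42, 4.64 and 4.03, and deeper within the gene 6.30 and 7.93, with −log10 q of 27.1 to 43.4. All 5 were strong, and all 5 remained lost in lists of equal length and after thinning. Syt13 also had 5 lost regions and Slc30a8, the granule zinc transporter, 4, beside 6 and 9 shared. Syt7, the calcium sensor synaptotagmin 7, had 5 gained and 2 lost regions. Ins2 had 2 gained and 2 shared, and Ins1 and Iapp had none gained or lost. The net count of Pcsk2, a prohormone convertase gene with 4 lost and 1 gained region, turned to 1 with starts within 20 kb.

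cAMP, calcium and calcineurin genes had 32 gained and 65 lost of 206 regions (15.5% and 31.6%). Adcy5, the adenylate cyclase that couples glucose to cAMP in beta cells, had 9 lost regions and no heterozygous peak. The highest fold, 10.2, was 14099 bp upstream, the region across the start had 7.96, and those within the gene had 5.32, 4.88, 3.10, 3.72, 4.25, 5.23 and 6.57. Of these 9, 5 were strong, with −log10 q of up to 46.0, and 7 remained at equal length. Nfatc2, a calcineurin-dependent transcription factor, had 9 lost regions and no peak in either knockout list, with folds of 3.45 to 7.72. Camk4, a calcium and calmodulin kinase, had 8 lost regions, of which 3 were strong. In the other direction, Rapgef4, the cAMP sensor Epac2, had 5 gained regions of fold 3.42 to 6.04 beside 7 shared, Adcy8 4 gained and no wild-type peak, and Nfatc1 4 gained and 1 lost. Of the other adenylate cyclases, Adcy1 had 3 lost regions, Adcy6 and Adcy9 had none gained or lost, and Adcy2 and Adcy3 had no region. Nfatc3 had 2 lost. The net count of the list turned from -33 to 3 at equal length and was -16 after thinning.

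Axon guidance genes had 35 gained and 53 lost of 147 regions (23.8% and 36.1%), above the background both ways. Its net count turned from -18 to 7 at equal length and was -5 after thinning. Unc5b (9), Plxna1 (6), a semaphorin receptor, and Ntn1 (5 gained, 2 lost), netrin 1, stood on the gained side. Nrp2 (12), Dpysl3 (6) and Nrp1 (3) stood on the lost side. At Dpysl3, a mediator of growth cone collapse, 5 of the 6 lost regions were strong, with −log10 q of up to 59.0, and neither knockout list had a peak. The net of Nrp1 turned to 1 at equal length and after thinning, and that of Ntn1 to -1 with strong regions alone.

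The remaining lists had lost shares below the background of 28.2%, apart from Wnt, Notch and TGF-beta genes. Their gained shares were below the background of 9.43%, apart from that list and housekeeping genes. Housekeeping genes had 7 gained and 6 lost of 68 regions (10.3% and 8.82%), and genes of the unfolded protein response 6 and 6 of 78 (7.69% each). All 20 and all 22 of their members with a listed start kept a peak there in both libraries. So did all 20 such acetylation genes and 21 of 22 such cell cycle genes. Of all 17492 genes with a listed start, 8748 had a peak there in both libraries and 704 in the wild type only. SWI/SNF subunits had 7 gained and 19 lost of 84 regions (8.33% and 22.6%), and Arid1b, the paralogue of Arid1a, had 2 gained and none lost. Acetylation enzymes and readers had 3 gained and 13 lost of 72 (4.17% and 18.1%). Cell cycle genes had 1 gained and 16 lost of 78 (1.28% and 20.5%). Of the latter 7 belonged to Ccnd2, cyclin D2, with fold 10.4 and −log10 q 40.8 at chr6:127245705-127246557 and 7.92 inside the gene, 1201 bp from one end. Ccnd2 had 7 wild-type, no heterozygous and 8 homozygous peaks, so of the 3 libraries only the heterozygous one had no peak there. Wnt, Notch and TGF-beta genes had 18 and 43 of 137 regions (13.1% and 31.4%), and a net of -25 that turned to 3 at equal length. Islet progenitor genes had 6 and 11 of 71 (8.45% and 15.5%), and a net of -5 that turned to 6. The net of SWI/SNF subunits turned from -12 to 1.

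The homozygous counts given above come from the authors' remaining list and share the wild-type library as their comparison, so they are set side by side and not as an overlap. At Spata13, Scgn, Nfatc2 and Dpysl3 the homozygous list had no peak, as in the heterozygous list. At Slc2a2, Ccnd2, Btbd9 and Ntrk3 it had 7, 8, 12 and 10 peaks where the heterozygous list had 1, 0, 2 and 0. At Shc3 and Maf it had 6 and 5 peaks where the wild type had none, and at Eva1a and Egfr 2 and 1. The genes named in this paragraph were picked after their values were seen.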

How the data were processed

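H3K27ac ChIP-seq peaks of 1 wild-type and 1 heterozygous Arid1a knockout MIN6 library, with 1 homozygous library beside them, were analysed as deposited. Reads were 75 bp single-end per the labels' protocols. bcl2fastq, MACS2 and build mm10 are named per the submitters' processing notes, and neither their versions nor the aligner, control and threshold are stated there. The deposited columns used were the fold enrichment (a ratio over local background), −log10 p and −log10 q. The deposited score was not used, and the authors called peaks per library. A pile-up and background were solved from fold and −log10 p, within 0.001, for 31363 of 31365 heterozygous and 41489 of 41490 wild-type peaks, and reads behind a peak are otherwise unknown.

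Peaks were joined in Python 3.11.15 (pandas 2.3.3, scipy 1.17.1, numpy 2.4.6), and the regions were checked against bedtools 2.31.1, with 47183 identical. Starts were 21263 of 17492 protein-coding genes in the RefSeq promoter table (GRCm38.p6). The other 4395 of 21887 genes were placed by both ends. Scripts were tested on simulated data. There was 1 library per genotype and hence no test. Genes were named by rule: per direction the 15 genes with most one-sided regions, 10 start and 5 distal regions by fold, 5 longest runs, 5 genes with a one-sided start and most regions, Arid1a, and list members with a net count of at least 3, up to 6 per list and direction. Markers, and list members with smaller nets, are named to account for their lists. Members and lists (17 lists, 448 entries, and 8 marker sets) were chosen with earlier results of these data known. Alternatives concerned the joining distance, list length, thresholds, depth, peak width, start window, gene assignment, sex chromosomes and run length.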

Additional observations from a re-analysis of the deposited data

How the results depend on the processing

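No paired analysis was possible because each genotype had 1 library, and for the same reason no library could be left out. Values that moved are given by setting. With lists of equal length there were 7813 lost regions, 2282 genes with more gained and 3092 with more lost regions, 130 gained and 134 lost runs, 297 genes with a heterozygous-only start, and 5 lists with more lost regions in place of 13. The lost share per chromosome then ran from 21.0% to 31.0%. With strong one-sided regions alone there were 774 gained and 2720 lost regions, and 434 and 1610 genes. The share of gained, lost and shared regions at starts was 5.95%, 7.78% and 49.7% at equal length, 6.93%, 9.53% and 52.8% at a −log10 q of at least 10, 5.48%, 7.52% and 49.4% after thinning, 5.73%, 7.26% and 48.0% within 2 kb and 4.12%, 5.62% and 45.5% within 500 bp, and for lost regions 9.49% with strong regions alone. The order of these 3 shares stayed the same in each of these settings. After thinning the lost share per chromosome ran from 23.6% to 35.2%. Runs of at least 3 regions numbered 397 gained and 1680 lost, and runs of at least 8 numbered 7 and 103. At equal length the net count (gained minus lost) reversed to 9 for immediate early genes (4 after thinning), 3 for other receptor tyrosine kinases, 10 for beta cell transcription factors, 3 for cAMP and calcium genes, 6 for progenitor genes, 7 for axon guidance genes, 3 for Wnt, Notch and TGF-beta genes and 1 for SWI/SNF subunits. These shifts follow from dropping the weakest wild-type peaks. That removes lost regions, and heterozygous regions over dropped peaks then count as gained. Single genes reversed for Lpp (-1 with the containing gene first and within 20 kb), Nrp1 (1 at equal length and after thinning), Ntn1 (-1 with strong regions), Pcsk2 (1 within 20 kb) and Ror1 (1 at equal length and with strong regions). Of 131 named genes, 82 kept their net count within 1.5 times at equal length, 102 after thinning, 111 with the containing gene first, 50 with starts within 20 kb and 23 with strong regions alone, where 44 were at 0. Counting neighbouring pieces within 1 kb once, an alternative chosen after seeing the data, gave 3917 gained and 10770 lost.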
